A study of Mus musculus with 24 samples.

Results

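The genes described here encode the plasma proteins of blood clotting, of clot dissolution and of complement, most of which the liver secretes. They are 40 genes listed by symbol, 21 of coagulation and fibrinolysis and 19 of complement and its regulators. Of these, 36 were measured on probe sets named for a single gene, 19 of coagulation and 17 of complement, among 22180 genes tested in all. The other members were not tested. Klkb1 (plasma prekallikrein) and Masp2 (a protease of the lectin pathway) lie on probe sets shared with another gene, and Cpb2 (an inhibitor of fibrinolysis) and C3 (the central complement protein) were not analysed here. F13b, C6 and Mbl1 had mean log2 levels of 3.99, 3.80 and 2.76, close to the median of all probe sets, 3.25, which marks the floor of the arrays.

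The samples were primary hepatocytes of male C57Bl6J mice, infected with an adenovirus carrying a short hairpin RNA against lacZ (shlacZ, a bacterial gene absent from mouse cells) or against FOXA2 (shFOXA2) at a multiplicity of infection of 5. Each culture then received 1 nM insulin or 100 nM glucagon, together with the solvent DMSO or 2 µM GW4064, an agonist of the bile acid receptor FXR, for 4 h. All groups shared the adenovirus, a hormone and a medium with 100 nM dexamethasone, a synthetic glucocorticoid. The 8 groups had 3 arrays each, 1 from each of experiments 1 to 3, and each experiment used hepatocytes pooled from 3 mice. No group lacked both hormones, so a rise under glucagon and a fall under insulin cannot be told apart. In what follows, rose and fell mean glucagon compared with insulin, and levels and differences are on the log2 scale.

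Foxa2, the gene that the hairpin targets, lay between 6.07 and 6.30 in the 6 insulin arrays of shlacZ cells and between 5.54 and 6.08 in those of shFOXA2 cells, and under glucagon between 7.11 and 7.72 and between 6.79 and 7.21. The ranges met only through experiment 3. The shFOXA2 array was the lower in 12 of 12 pairs, with means of 6.80 and 6.36 and a difference of -0.43 ± 0.07 (SE), or -25.9%. In limma, fitted over all genes with Benjamini-Hochberg adjustment, this missed the threshold (adjusted p = 0.0613) and passed with the experiment as a block (0.0194), and it was -0.51, -0.66 and -0.12 in experiments 1, 2 and 3.

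The coagulation cascade is a chain of proteases that ends with thrombin (F2) cutting fibrinogen into fibrin, and its anticoagulants and the plasmin system limit and dissolve the clot. Complement is a parallel chain of proteases that marks microbes and ends in a pore of the terminal components. Hepatocytes make nearly all of these proteins, and many belong to the acute phase response, in which glucocorticoids and cytokines raise their transcription.

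Factor XI (F11), the fibrinogen alpha chain (Fga), factor V (F5) and protein S (Pros1) were higher under glucagon than under insulin, with the largest differences among the members that passed the test. Averaged over both hairpins and both drug treatments, with 12 arrays for each hormone, 7 of the 19 coagulation genes rose, 0 fell, and 12 did not pass the test. The 7 were F11, Fga, F5, Pros1, Fgb, F9 and F2. Of the 17 complement genes, 0 passed in limma at an adjusted p of 0.05, and 1 had an unadjusted p under 0.05. Over all 22180 genes the same test called 7.38% higher and 8.85% lower, and among the 9041 genes with a mean level of at least 4, 14.7% higher. The 36.8% of coagulation genes called higher thus stands beside 7.38% of all genes.

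The 3 experiments differed in level, and the experiment numbers paired the arrays, so the comparison was also fitted with the experiment as a block. Throughout, the standard error after ± of a difference is that of the fit without the block, also where a p-value with the block is given. With the block, 13 of 19 coagulation genes (68.4%) and 5 of 17 complement genes (29.4%) rose and 0 fell, beside 12% of all genes higher and 12.6% lower, and 23.9% higher among the genes with a mean level of at least 4. The complement share lay near this last one. The added coagulation genes were F7, Fgg, Proc, Serpinc1, Plg and Hrg, and the complement genes were Cfb, Hc, Cfi, C4bp and Serping1. In the fit without the block, F11, F5 and Fgb passed without experiment 1, F11 and F5 without experiment 2, and all 7 and Proc without experiment 3. With the block, 10, 10 and 13 coagulation genes passed without experiments 1, 2 and 3. F11 and F5 passed under each of the 14 alternatives run.

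**Figure D1:**
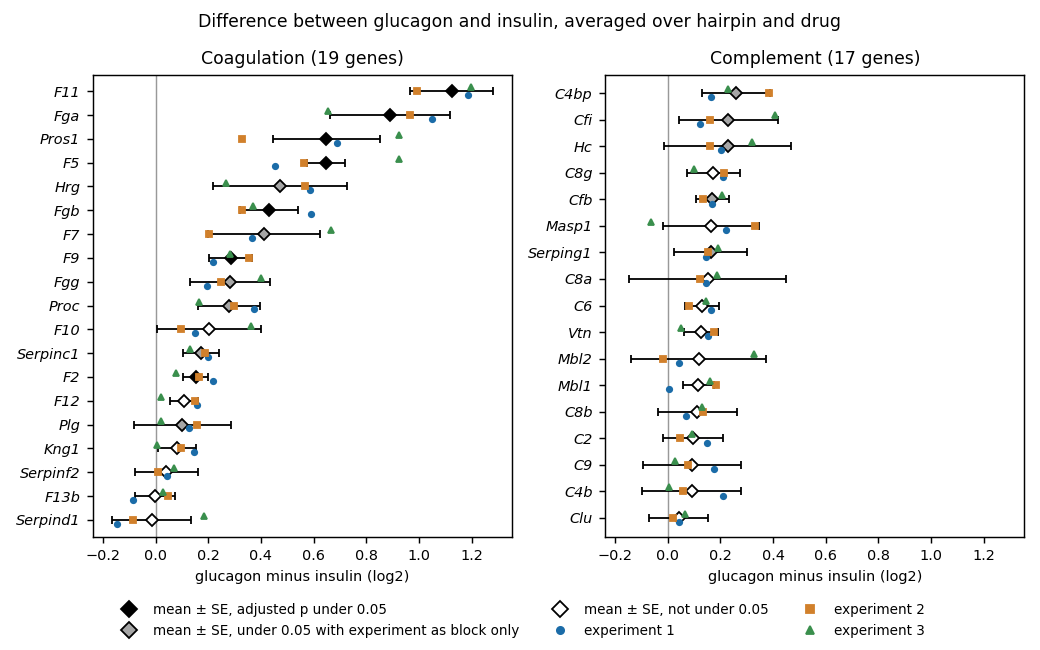
Log2 difference between glucagon and insulin (horizontal axis) of each measured member, averaged over hairpin and drug. Diamonds are means with standard errors from the fit without a block, filled black where the adjusted p was under 0.05, grey where it was so only with the experiment as a block, and white otherwise; coloured symbols are the differences within experiments 1 to 3 (4 pairs of arrays each). Coagulation genes spread up to 1.12, whereas complement genes lie between 0.04 and 0.26.

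The direction was shared more widely than the calls. Differences were above 0 in 17 of 19 coagulation genes and in 17 of 17 complement genes, beside 50.0% of the genes with a mean level of at least 4. The 2 exceptions were Serpind1 (heparin cofactor II), at -0.01, and F13b, the carrier subunit of factor XIII, at -0.003. This direction was not particular to the members. Each of 7 hepatocyte markers, and all measured acute phase genes but Mt2 and Il1rn, also lay higher under glucagon. The difference was above 0 within each of the 3 experiments in 17 of 19 coagulation genes and 15 of 17 complement genes, beside 24.2% of all genes. The median difference was 0.28 for coagulation, 0.13 for complement and 0.005 for all genes. The 2 medians lay 0.15 apart over all arrays, and 0.07, 0.07 and 0.12 apart within experiments 1, 2 and 3. With Serping1, Vtn and Clu, which regulate more than complement, counted with coagulation, the medians lay 0.05 apart, and the counts of genes called became 7 of 22 and 0 of 14.

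Of the fibrinogen chains, Fga and Fgb rose without the block and Fgg with it only. Fibrinogen is a hexamer of 3 chains encoded by Fga, Fgb and Fgg, which lie together on chromosome 3 of the mouse, and thrombin turns it into the fibrin of the clot. Their promoters are shown because the genes stand in 1 cluster. The differences between their responses were not tested. Sequences are from RefSeq (GRCm38.p6), from 250 bases before to 50 after the start of the gene, written 5′ to 3′ along the gene: Fga at chr3:83025903-83026202 on the plus strand, Fgb at chr3:83049814-83050113 on the minus strand and Fgg at chr3:83007474-83007773 on the plus strand. Capitals mark matches to the motifs named after them.
Fga: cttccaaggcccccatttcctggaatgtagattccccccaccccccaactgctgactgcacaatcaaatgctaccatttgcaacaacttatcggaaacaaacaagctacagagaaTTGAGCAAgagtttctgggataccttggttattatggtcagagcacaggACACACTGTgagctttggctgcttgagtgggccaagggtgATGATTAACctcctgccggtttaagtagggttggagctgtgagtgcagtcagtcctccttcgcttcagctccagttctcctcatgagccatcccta
Fgb: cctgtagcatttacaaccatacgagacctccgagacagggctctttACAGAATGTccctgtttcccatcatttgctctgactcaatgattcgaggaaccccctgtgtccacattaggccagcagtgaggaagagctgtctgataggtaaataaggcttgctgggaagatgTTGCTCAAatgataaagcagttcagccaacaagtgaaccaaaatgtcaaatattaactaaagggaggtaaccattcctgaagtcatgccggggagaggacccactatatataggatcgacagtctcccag
Fgg: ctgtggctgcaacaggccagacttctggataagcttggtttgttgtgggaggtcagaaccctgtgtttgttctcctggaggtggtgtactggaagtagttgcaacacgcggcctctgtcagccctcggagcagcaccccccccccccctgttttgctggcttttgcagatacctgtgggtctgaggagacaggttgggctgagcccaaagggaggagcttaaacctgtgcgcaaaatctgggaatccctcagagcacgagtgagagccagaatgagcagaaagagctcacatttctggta

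In these windows the C/EBP motif TTGCNNAA was matched 135 bases before the start of Fga and 80 bases before that of Fgb. The glucocorticoid receptor motif ACANNNTGT was matched 86 and 204 bases before these starts, and the HNF1 motif GTTAATNAT 46 bases before that of Fga. Fgg held 0 matches to any motif searched. Both strands were searched. Of the 32851 RefSeq promoters of this length, 10.8% held the C/EBP motif, 6.85% the glucocorticoid receptor motif and 0.801% the HNF1 motif. Over the 18 coagulation promoters in the table, 8 held the C/EBP motif and 5 the glucocorticoid receptor motif, and over the 13 complement promoters (of 12 genes) 2 and 1, with members not tested included. The full cAMP response element TGACGTCA was found in 1 of 18 and 0 of 13, with 1.79% over all promoters, and its first 5 letters TGACG, which the full element also holds, in 5 and 2, with 20.8% over all. The FOXA motif TGTTTAC was in 2 and 0 (3.65% over all), the HNF1 motif in 2 and 2, and the HNF4 motif CAAAGTCCA (0.475%) and the FXR inverted repeat GGTCANTGA (0.840%) in 0 of either list. Motif matches describe the letters of these windows, and binding was not measured.

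Fga, the alpha chain, lay at log2 levels of 6.21 to 7.88 with a median of 6.70 on the 12 insulin arrays, and at 7.12 to 8.44 with a median of 7.75 on the 12 glucagon arrays. The ranges overlapped across experiments, but within each of the 3 experiments all 4 glucagon arrays lay above all 4 insulin arrays. That held for 3 of 19 coagulation genes and 0 of 17 complement genes, beside 2.57% of all genes. Fga rose by 0.89 ± 0.23 (SE), 1.85-fold, in 12 of 12 pairs of arrays (limma adjusted p = 0.00898, or 6.8e-07 with the block). Within experiments 1, 2 and 3 the difference was 1.05, 0.97 and 0.66. Without experiment 1 or 2 the adjusted p was 0.150 or 0.145.

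Fgb, the beta chain, ranged from 9.76 to 10.67 with a median of 10.27 under insulin and from 10.25 to 11.08 with a median of 10.70 under glucagon. Its insulin and glucagon arrays overlapped, and all 4 glucagon arrays lay above all 4 insulin arrays in 1 of the 3 experiments. Fgb rose by 0.43 ± 0.11, 1.35-fold, in 12 of 12 pairs (adjusted p = 0.00829). Fgg, the gamma chain, ranged from 8.45 to 9.48 with a median of 9.0 under insulin and from 8.66 to 9.76 with a median of 9.33 under glucagon. Its difference of 0.28 ± 0.15 did not pass without the block (adjusted p = 0.275) and passed with it (adjusted p = 0.00266), being above 0 in 11 of 12 pairs. F13b, whose protein carries the enzyme that cross-links fibrin, lay near the floor and differed by -0.003 ± 0.08.

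**Figure D2:**
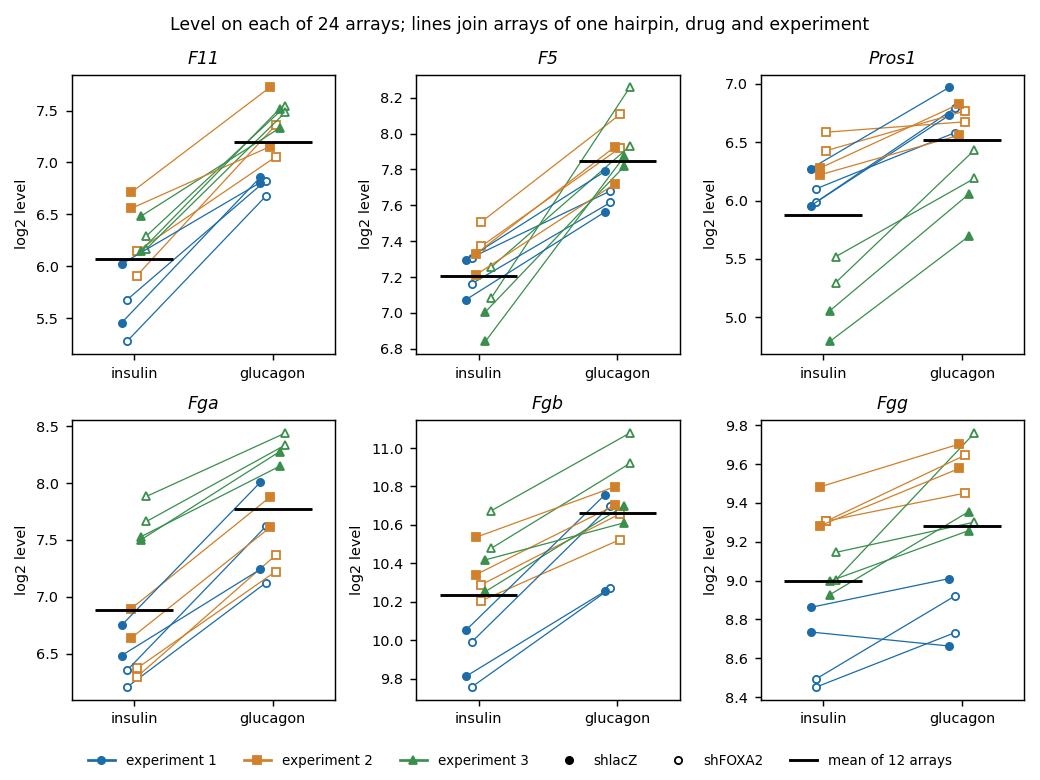
Log2 level (vertical axis) of 6 coagulation genes on each of the 24 arrays, by hormone. Thin lines join the insulin and glucagon arrays of the same hairpin, drug and experiment, colours and shapes give the experiment, filled symbols are shlacZ and open symbols shFOXA2, and black bars are means of 12 arrays. For F11, F5, Pros1, Fga and Fgb all 12 lines rise, and for Fgg 11 of 12.

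F11, the zymogen of factor XIa that activates factor IX, had the largest difference of the 36 members. Its log2 level lay between 5.28 and 6.71 with a median of 6.14 under insulin, and between 6.68 and 7.73 with a median of 7.24 under glucagon. The highest insulin array, of experiment 2, overlapped narrowly with the lowest glucagon array, of experiment 1, and within each experiment the hormones were fully separate. F11 rose by 1.12 ± 0.16, 2.18-fold, in 12 of 12 pairs (limma adjusted p = 2.2e-05). The difference was 1.18, 0.99 and 1.20 in the 3 experiments.

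The promoter of F11, at chr8:45261982-45262281 on the minus strand, is shown because this gene had the largest difference. Capitals mark, in order along the gene, a glucocorticoid receptor match, then, on the other strand, a FOXA match and a C/EBP match. They begin 59, 25 and 17 bases before the start on which this window is set. The gene is listed as reaching 45262055, further upstream than that start. By that listing the C/EBP match lies inside the gene and the FOXA match spans its beginning.
F11: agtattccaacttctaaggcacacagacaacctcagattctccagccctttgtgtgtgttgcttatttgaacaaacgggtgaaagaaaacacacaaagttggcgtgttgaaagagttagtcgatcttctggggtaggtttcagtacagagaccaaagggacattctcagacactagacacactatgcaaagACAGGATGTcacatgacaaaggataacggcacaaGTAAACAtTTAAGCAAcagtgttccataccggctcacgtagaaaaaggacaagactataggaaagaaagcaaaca

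The other measured proteins of the contact system, which starts clotting on charged surfaces, differed less. F12, the zymogen that F11 follows, lay at 9.64 on average under insulin and 9.75 under glucagon, a difference of 0.11 ± 0.05 (adjusted p = 0.213). Kng1, high molecular weight kininogen, differed by 0.08 ± 0.07 (adjusted p = 0.563), and its signal may be shared with the near-identical Kng2. Neither passed with the block, at adjusted p = 0.0952 and 0.234.

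F5, the cofactor that speeds the activation of prothrombin, was the only member whose insulin and glucagon arrays did not overlap. It lay between 6.84 and 7.51 with a median of 7.23 under insulin and between 7.56 and 8.26 with a median of 7.85 under glucagon. Over all genes, 1.11% had every glucagon array above every insulin array. F5 rose by 0.65 ± 0.07, 1.57-fold, in 12 of 12 pairs (adjusted p = 1.5e-06), by 0.45, 0.56 and 0.92 in experiments 1 to 3. Its promoter held 0 matches to the motifs searched.

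The members that encode vitamin K-dependent proteins, which need gamma-carboxylation to bind calcium, were F2, F7, F9, F10, Proc and Pros1, a grouping made after their values were seen. Of these 6, 3 rose without the block and 5 with it. Among all genes with a mean level of at least 4, 14.7% were higher without the block and 23.9% with it. Because the grouping followed the values, its counts are no independent evidence of a shared response. Proz and Gas6, which encode vitamin K-dependent proteins too and are no members, differed by 0.17 ± 0.06 and 0.12 ± 0.14 (limma adjusted p = 0.0554 and 0.690 without the block, 0.0306 and 0.0630 with it). F9, factor IX, whose loss causes haemophilia B, ranged from 8.06 to 8.60 under insulin (median 8.38) and from 8.19 to 8.96 under glucagon (median 8.74). The ranges overlapped, and F9 rose by 0.28 ± 0.08, 1.22-fold, in 11 of 12 pairs (adjusted p = 0.0168). F2, prothrombin, ranged from 9.84 to 10.20 under insulin (median 10.06) and from 10.04 to 10.34 under glucagon (median 10.17). It rose by 0.15 ± 0.05, 1.11-fold, in 11 of 12 pairs (adjusted p = 0.0283), the smallest difference among the genes called. F2 lost its call with each array centred on its median (adjusted p = 0.0666) and without experiment 1 or 2 (0.156 and 0.278). F7, the zymogen that tissue factor activates, differed by 0.41 ± 0.21 and F10, which forms the prothrombin-cleaving enzyme, by 0.20 ± 0.20. F7 passed with the block only (adjusted p = 0.245 without and 7.4e-04 with it), and F10 in neither fit (0.625 and 0.0616).

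Among the anticoagulants, Pros1, the cofactor of activated protein C, lay between 4.79 and 6.58 under insulin (median 6.04) and between 5.69 and 6.97 under glucagon (median 6.63). The ranges overlapped, and in 2 of the 3 experiments all 4 glucagon arrays lay above all 4 insulin arrays. Pros1 rose by 0.65 ± 0.20, 1.57-fold, in 12 of 12 pairs (adjusted p = 0.0320), by 0.69, 0.33 and 0.93 in experiments 1 to 3. Proc, protein C itself, differed by 0.28 ± 0.12 and Serpinc1, antithrombin, by 0.17 ± 0.07, and both passed with the block only (adjusted p = 0.130 and 0.106 without it, 0.0012 and 0.0056 with it). Serpind1 passed in neither fit. Of the fibrinolysis genes, Hrg, histidine-rich glycoprotein, differed by 0.47 ± 0.26 and Plg, plasminogen, by 0.10 ± 0.18 (SE without the block). Both were called with the block only (limma adjusted p with the block = 2.5e-04 and 0.0466). Serpinf2, the inhibitor of plasmin, differed by 0.04 ± 0.12 and passed in neither fit.

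Complement genes of all pathways lay slightly above their insulin level under glucagon, and with all genes tested none passed without the block. Cfb passed without it when genes with a mean level under 4 were left out. Of the 5 genes of the lectin and classical pathways, 0 passed in either fit, with 0 at an unadjusted p under 0.05 without the block and 2 with it. They were Masp1, Mbl1, Mbl2, C2 and C4b, with differences of 0.09 to 0.16, and the signal of C4b may be shared with its near-identical copy C4a. Cfb, the protease of the alternative pathway, ranged from 8.53 to 8.94 under insulin (median 8.76) and from 8.56 to 9.10 under glucagon (median 8.92). These ranges overlapped. Its difference of 0.17 ± 0.06 was above 0 in 11 of 12 pairs. Without the block it had the smallest p of the complement genes (limma adjusted p = 0.0778). With the block its adjusted p was 0.0169, and the smallest was that of C4bp, 7.2e-04.

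Of the 6 terminal components, 1 passed with the block: Hc, complement C5, at 0.23 ± 0.24 (adjusted p = 8.0e-04 with the block, 0.664 without). C6, C8a, C8b, C8g and C9, which build the membrane pore, differed by 0.09 to 0.17. Of the 5 regulators, 3 passed with the block only. C4bp, which binds C4b, differed by 0.26 ± 0.13 (adjusted p = 7.2e-04 with the block, 0.226 without), Cfi, which cleaves C3b and C4b, by 0.23 ± 0.19 (0.0016 and 0.531) and Serping1, the C1 inhibitor, by 0.16 ± 0.14 (0.0079 and 0.559). Vtn, vitronectin, differed by 0.13 ± 0.06 and Clu, clusterin, by 0.04 ± 0.11, and neither passed. The count of genes higher in 12 of 12 pairs was 5 of 19 for coagulation and 0 of 17 for complement, beside 4.58% of all genes.

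Within a single condition, with 3 arrays for each hormone, F5 passed without the block in each of the 4 conditions, with differences of 0.63 (shlacZ and DMSO), 0.72 (shFOXA2 and DMSO), 0.68 (shlacZ and GW4064) and 0.56 (shFOXA2 and GW4064). F11 differed by 0.88, 1.28, 1.12 and 1.21 in the same order, and passed in both shFOXA2 conditions (adjusted p = 0.0198 and 0.0350). With shlacZ its adjusted p was 0.138 and 0.0592. The members called higher were thus 1, 2, 1 and 2 of 36, beside 1.71%, 2.12%, 1.29% and 1.37% of all genes. With the block 5, 7, 7 and 4 members passed, beside 4.66%, 5.32%, 3.91% and 4.08%, and F5, F11 and Fga were among them in each condition. Fga differed by 0.84, 0.81, 0.95 and 0.96. Without the block, leaving out experiment 2 brought the count to 0 in each of the 4 conditions.

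The mean log2 level of F11 in shlacZ cells with DMSO was 6.40 ± 0.35 (SD, n = 3) under insulin and 7.29 ± 0.46 under glucagon, and with GW4064 it was 6.05 ± 0.56 and 7.18 ± 0.33. In shFOXA2 cells the level was 5.96 ± 0.31 and 7.24 ± 0.37 with DMSO, and 5.86 ± 0.51 and 7.07 ± 0.40 with GW4064. Each glucagon mean of F11 stood above all 4 insulin means.

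The FXR agonist moved none of the members past the threshold. Averaged over hormone and hairpin, 0 of 36 passed in limma, with or without the block, and 0 had an unadjusted p under 0.05 (3 with the block). Over all genes, 0.00902% passed, and 0.0135% with the block. Differences between GW4064 and DMSO ran from -0.18 for F11 to 0.15 for Fgb, with medians of -0.04 for coagulation and -0.02 for complement. In limma the smallest p-values belonged to F5 and F13b. F5 had a mean of 7.59 on the 12 DMSO arrays and 7.46 on the 12 GW4064 arrays, a difference of -0.13 (95% interval -0.28 to 0.02, limma unadjusted p = 0.0880). F13b differed by -0.11 (-0.27 to 0.05, limma unadjusted p = 0.162). F5 was lower with GW4064 in 10 of 12 pairs and F13b in 10 of 12. With the block, F11 had the smallest p (unadjusted 0.0242, adjusted 0.795, interval -0.34 to -0.03). Over all members the 95% intervals spanned -0.59 to 0.65, and -0.34 to 0.33 with the block, so larger changes lay outside them. Under insulin alone and under glucagon alone 0 members passed as well, with 0 at an unadjusted p under 0.05 (5 and 1 with the block), beside 0% of all genes (0.00902% with the block in either case).

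The hairpin against FOXA2 moved none of the members past the threshold in limma. The averaged hairpin comparison called 0.00902% of all genes, and 0.0766% with the block. None of the 36 members had an unadjusted p under 0.05 without the block, and 4 had with it. Differences ran from -0.20 for F11 to 0.16 for Pros1, with medians of 0.01 for coagulation and 0.03 for complement. These averages pool experiments that differed in sign for some members. Fga differed by -0.29, -0.44 and 0.22 in experiments 1, 2 and 3, and F11 by -0.17, -0.42 and 0.001. Foxa2 itself differed by -0.51, -0.66 and -0.12 there. The hairpin was not tested within single experiments. F5 had the smallest p, with means of 7.45 in shlacZ and 7.60 in shFOXA2 cells, 0.15 higher in 11 of 12 pairs (unadjusted p = 0.0589, adjusted 0.822). With the block the smallest p was that of F11, at 6.73 and 6.53, lower in 9 of 12 pairs (unadjusted p = 0.226 without and 0.0163 with the block, adjusted 0.899 and 0.353). The 95% intervals over all members spanned -0.65 to 0.63, and -0.38 to 0.34 in the blocked fit. Under insulin alone 0 members and 0.00451% of all genes passed, and under glucagon alone 0 members and 0%, with 0 members at an unadjusted p under 0.05 in either (2 and 1 with the block); with the block these shares were 0.00902% and 0.00451%.

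**Figure D3:**
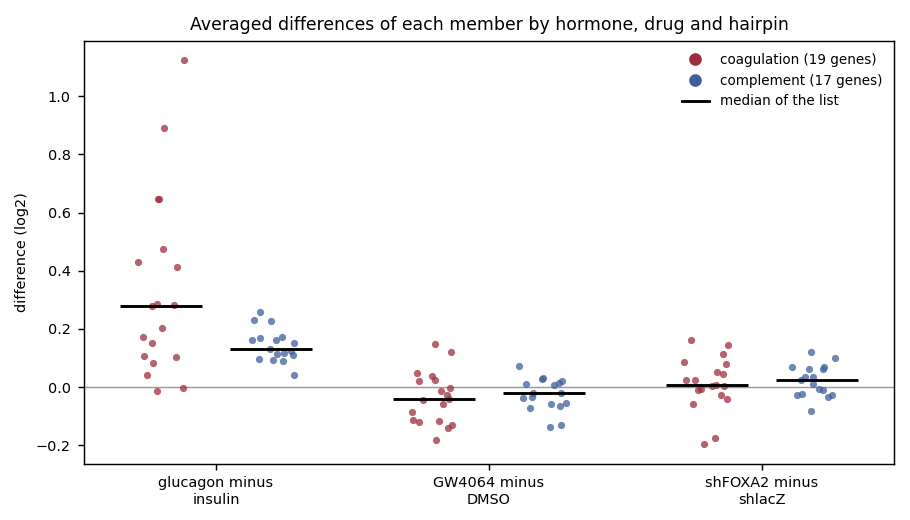
Averaged log2 difference (vertical axis) of each of the 19 coagulation and 17 complement genes between glucagon and insulin, GW4064 and DMSO, and shFOXA2 and shlacZ. Points are genes, spread sideways only for visibility, and bars are medians. The hormone differences reach 1.12, whereas those of drug and hairpin stay between -0.20 and 0.16.

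The hormone response of the members did not differ detectably by drug or hairpin. In each of the 4 interactions 0 members and 0% of all genes passed in limma, with and without the block. Over all genes, 584 to 921 had an unadjusted p under 0.05 without the block. Unadjusted p-values under 0.05 were 0 among the members in each 2-way interaction and 1 in the 3-way interaction, and with the block 2, 1, 1 and 2 for hormone by drug, hormone by hairpin, drug by hairpin and all 3. The smallest p belonged to Mbl1, near the floor, for hormone by drug (-0.23, 95% interval -0.47 to 0.01) and for all 3 factors (-0.49, -0.98 to -0.01). For hormone by hairpin it belonged to Cfb (-0.23, -0.50 to 0.03), whose glucagon and insulin means in shlacZ cells with DMSO were 8.97 ± 0.11 and 8.71 ± 0.20 and in shFOXA2 cells 8.79 ± 0.22 and 8.81 ± 0.14. For drug by hairpin it belonged to C2, the classical pathway protease, at 0.34 (-0.13 to 0.81). For F11 the interval of hormone by hairpin was -0.42 to 0.90, and for Fga -0.96 to 0.95, so a sizeable difference between hairpins lies within the error.

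For most members the range of level between experiments exceeded the difference between hormones. The range between the 3 experiment means had a median of 0.55 for coagulation and 0.65 for complement, beside 0.14 for all genes and 0.25 for genes with a mean level of at least 4. It exceeded the hormone difference in 16 of 19 coagulation and 17 of 17 complement genes, beside 73.3% of all genes and 65.7% of genes with a mean level of at least 4. A range over 3 means tends to exceed a difference between 2 means, so these counts do not compare like with like. C8a, a chain of the membrane pore, varied most, with experiment means of 4.76, 6.31 and 5.81, and Hrg varied most among the coagulation genes, at 6.73, 6.16 and 7.45.

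The 2 lists did not share their pattern over experiments. In complement, 16 of 17 genes were highest in experiment 2, the exception being Masp1, which was highest in experiment 3. Of the coagulation genes 4, 7 and 8 were highest in experiments 1, 2 and 3. Over all 22180 genes these counts were 6062, 8703 and 7415. Over the 9041 genes with a mean level of at least 4 they were 3333, 2866 and 2842. F7 and Hrg were lowest in experiment 2, and Plg was highest there, at 8.77 beside 7.96 and 7.90. Each experiment is 1 pool of cells, so these are descriptions of 3 pools. The cells also differed in other ways: the mean of 7 endothelial markers was 5.03 to 5.20 in experiment 1, 4.18 to 4.36 in experiment 2 and 4.46 to 4.62 in experiment 3, with Kdr, Tek and Clec4g near the floor. The mean of 7 hepatocyte markers was 11.001 to 11.35 in experiment 1, 10.58 to 11.21 in experiment 2 and 11.21 to 11.52 in experiment 3. Their part in the levels of the members was not tested, and in these cultures fewer cells of a type and less RNA per cell cannot be told apart.

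**Figure D4:**
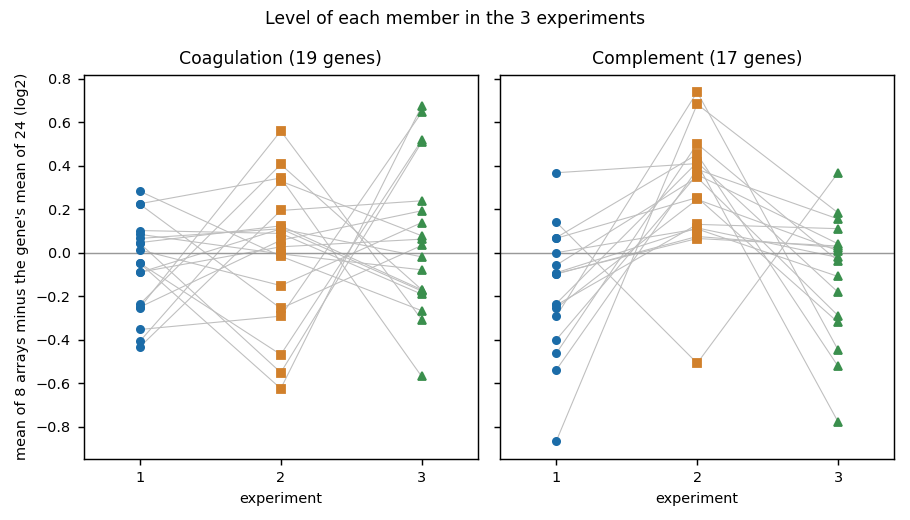
Mean log2 level of each member on the 8 arrays of an experiment, minus its mean over all 24 arrays (vertical axis), for experiments 1 to 3 (horizontal axis). Grey lines join the values of a gene. Of the 17 complement genes 16 are highest in experiment 2, beside 8703 of all 22180 genes, and the coagulation genes have no common order.

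Without the block, the cell markers that passed the test between the hormones were of the hepatocyte and cholangiocyte lists. Of 7 measured hepatocyte markers 3 rose under glucagon (Cps1 1.10, Ttr 0.27, Ahsg 0.24) and 0 fell. This stands beside 36.8% of the coagulation genes, 7.38% of all genes and 14.7% of the genes with a mean level of at least 4. The hepatocyte list mean ranged from 10.6 to 11.4 under insulin and from 10.9 to 11.5 under glucagon. Of 4 cholangiocyte markers 1 fell, Sox9 by 1.20, and the list mean ranged from 4.39 to 5.10 and from 4.09 to 4.44, with Krt7 and Epcam near the floor. The means of the macrophage list were 3.42 to 3.85 and 3.57 to 3.94, of the endothelial list 4.18 to 5.16 and 4.22 to 5.20, and of the stellate list 3.30 to 3.75 and 3.38 to 3.85. Of the macrophage, endothelial, stellate, lymphocyte and platelet markers 0 of 8, 7, 7, 5 and 4 passed. All 5 lymphocyte and 4 platelet markers were near the floor. So were the macrophage markers other than Cd68 (9.12), with Marco at 4.01, and the stellate markers other than Acta2 (5.74). Among the endothelial markers Kdr, Tek and Clec4g were near it too. With the block Cd68, Cdh5, Lrat and Reln rose as well and Krt19 fell, with Lrat and Reln at low mean levels of 2.98 and 3.71. The part of these markers in the hormone differences of the members was not tested.

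A set of 4 arrays stood apart. The mean of 12 NF-kB target genes was lower under glucagon than under insulin in every pair except those of shlacZ cells in experiment 3, where it was 6.73 and 6.53 under insulin and 7.02 and 7.23 under glucagon. The glucagon-induced gene Pck1 followed the hormone labels there (3.69 and 3.50 under insulin, 9.68 and 9.70 under glucagon). Without these 4 arrays 6 members passed, all but F2 of the 7, and 16 passed with the block.

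Among 26 measured of 29 other genes of coagulation and fibrinolysis, 5 rose and 4 fell under glucagon. With the block 9 rose and 7 fell. Of all genes, 7.38% were higher and 8.85% lower without the block. Among the genes with a mean level of at least 4, 14.7% were higher and 19.7% lower without it. With the block these last shares were 23.9% and 27.3%. The counts of this list were not tested against these shares. F3, tissue factor, the cell surface protein that starts clotting with F7, fell by 2.03 on the log2 scale, to 7.97, in 12 of 12 pairs (limma adjusted p = 7.9e-07). Plaur, the receptor of urokinase, fell by 1.67 and Mcfd2, which carries factors V and VIII out of the endoplasmic reticulum, fell by 0.79, each in 12 of 12 pairs (adjusted p = 2.1e-10 and 3.2e-09). Of the genes that rose, Ggcx and Vkorc1 encode the gamma-carboxylase and the vitamin K reductase that the vitamin K-dependent proteins need, and they rose by 0.38 and 0.36 (adjusted p = 9.6e-04 and 7.2e-04). Serpina10, the protein Z-dependent inhibitor, rose by 0.54, F2r, a thrombin receptor, by 0.43, and Procr, the protein C receptor, by 0.50 from a level near the floor.

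Of 30 measured of 35 other complement genes, 0 passed in limma, with 5 at an unadjusted p under 0.05, and 4 rose with the block (Crp, Apcs, Cfhr2 and C1rl). Most of the 30 lay near the floor, such as C7 at 2.66 under insulin and 2.67 under glucagon. The absence of calls says little about those genes. Cfhr2 was near the floor too, at 3.80 under insulin and 4.11 under glucagon. Crp, C-reactive protein, which can start the classical pathway, differed by 1.03 ± 0.39 in 12 of 12 pairs (adjusted p = 0.0860 without and 3.7e-08 with the block). Among 16 measured acute phase genes 2 rose, Lbp by 0.31 and Socs3, from a level near the floor, by 0.54. With the block 8 rose and 1 fell. Of all genes with a mean level of at least 4, 14.7% were higher, and 23.9% with the block. These lists were chosen with earlier results of the data known and are no independent evidence.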

How the data were processed

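The authors deposited log2 expression values, 1 column for each of 24 Affymetrix MoGene 2.0 ST arrays and 41345 probe sets. GeneSpring software was used, technical replicates of a sample were pooled, and an experiment used the hepatocytes of 3 mice as a pool, per the series' design text, and 300 ng of RNA was labelled, per the labels' protocols. The normalization is not given in the sources used here. The log2 scale was read from the values, 1.46 to 13.5, with array medians of 3.21 to 3.28; the number of arrays limits the precision, and the median standard error over genes was 0.063 for a difference averaged over 4 conditions and 0.13 for 3 against 3 arrays.

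Probe sets were named through the platform table: 23521 had 1 symbol, 1814 had several and 16010 had none. For the 1082 genes with several probe sets the one of the highest mean was used. The test was limma's (version 3.58.1, under R 4.3.3), with lmFit on 1 mean for each of 8 groups, eBayes and 16 residual degrees of freedom, with Benjamini-Hochberg adjustment over all 22180 genes and a threshold of 0.05. An averaged comparison treats the 4 pairs of arrays within an experiment as independent. The alternative fit had the experiment as a block (14 residual degrees of freedom). The experiments are named by the labels and pair the arrays: deviations from group means correlated within experiments at 0.374 to 0.698 in 84 pairs. Promoters were found for 30 of the 40 members.

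The members, lists and motifs were chosen with earlier results of these data known. All members could be named; array values were given for the fibrinogen chains and the members past the threshold, and for the members of smallest p elsewhere. Other pathway genes were named where they passed, at most 8 by size. The other alternatives were centring, leaving out dim genes (mean under 4), averaging probe sets, an intensity trend with a robust prior, leaving out each experiment and leaving out 4 arrays. Figures were drawn with matplotlib 3.10.9.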

Additional observations from a re-analysis of the deposited data

How the results depend on the processing

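The count of members higher under glucagon, 7 of 36, was 6 to 8 with each array centred, dim genes left out, probe sets averaged, an intensity trend or the 4 shlacZ arrays of experiment 3 left out, and 2 to 8 with each experiment left out in turn. With the experiment as a replicate block it was 18, with the block and centring 17, with the block and without the 4 arrays 16, and with the block and without each experiment in turn 13 to 20. No member fell in any of these fits. The 8 members called with dim genes left out were the 7 and Cfb, a complement gene. For the single conditions, 1, 2, 1 and 2 members (in the order shlacZ and DMSO, shFOXA2 and DMSO, shlacZ and GW4064, shFOXA2 and GW4064) became 5, 7, 7 and 4 with the block, and 0 to 1, 0 to 2, 0 to 1 and 0 to 1 with an experiment left out. With dim genes left out, shFOXA2 and DMSO had 3 and shlacZ and GW4064 had 2. The gap between the coagulation and complement medians, 0.149, was 0.0772, 0.102 and 0.0885 with experiment 1, 2 or 3 left out, with or without the block, and 0.0469 with Serping1, Vtn and Clu counted with coagulation. The cause of these shifts was not tested. The blocked fit changed no call of a member in the drug, hairpin and interaction comparisons, where 0 passed in each alternative run.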
